A study of Mus musculus with 9 samples.

Results

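Integrin and laminin subunit genes were examined in auditory nerve tissue of the adult mouse, in cells cultured from the nerve and in neurospheres grown from those cultures. The members were all genes whose symbols begin with Itga, are Itgb1 to Itgb8, or are laminin alpha, beta or gamma chains 1 to 5, among probe sets that named a single gene. This gave 34 of the 18193 genes on the arrays, of which 16 encode integrin alpha subunits, 8 integrin beta subunits and 10 laminin chains. Where a gene had several probe sets, as 20 members did, the brightest on average over the 9 arrays stood for it, and the 34 genes had 73 in all. Itga11 and Itgad were not analysed here.

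The tissue was auditory nerve dissected from the temporal bones of untreated CBA/CaJ mice of both sexes, aged 8 to 12 weeks, and 3 samples were arrayed. The 3 samples of cultured cells came from nerves of the same strain and age that were dissociated with trypsin and grown for 5 to 7 days to confluency, in medium with 10% serum on plates coated with poly-L-ornithine and fibronectin. The 3 neurosphere samples were cultures of this kind, kept for a further 12 days in serum-free medium with EGF (20 ng/ml), FGF (10 ng/ml) and heparin (2 µg/ml), so both kinds of culture shared the enzyme treatment and the period on fibronectin. Whether samples of 1 group stem from different animals or cultures is not stated in the labels, so a p-value reflects only how these samples spread, and that spread may be technical. Precision is limited throughout by the 3 arrays in a group.

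Integrins are receptors that join an alpha and a beta subunit in the cell membrane, bind matrix or other cells outside the cell, and connect to the actin cytoskeleton or, for the subunit beta 4, to intermediate filaments inside it. Laminins are trimers of an alpha, a beta and a gamma chain that form the sheet-like scaffold of basement membranes. In peripheral nerve every Schwann cell and its axon lie inside a basement membrane rich in laminin. Schwann cells need the laminin chains alpha 2 and gamma 1 and the integrin subunit beta 1 to sort and myelinate axons. Fibroblasts, perineurial cells, vessels and leukocytes of the nerve use further members of both families.

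Signals are RMA values on the log2 scale, so a difference of 1 is a doubling of signal. A signal was taken as close to background where the group mean was under 5.70, the 95th percentile of 71 olfactory and vomeronasal receptor genes over all arrays, whose median was 3.84. By this gauge 28 members were above background in at least 1 group and 22 in every group. The 6 that stayed under it in all groups were Itgae, Itgam, Itgax, Itgb6, Lama3 and Lamb3. Signals of different probe sets are not compared with each other, since probes differ in brightness.

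Several measures of the samples moved with the same contrast as the members. For actin, the 3' control probe set was brighter than the 5' control by 2.71 ± 0.35 (SD over 3 arrays, log2) on tissue arrays, by 0.36 ± 0.037 on those of cultured cells and by 0.70 ± 0.15 on those of neurospheres, so this sign of RNA integrity moved with every difference from tissue. All 5 measured Schwann cell and myelin markers and all 8 neuron markers fell in both cultures. The summed signal (log2) of the Schwann list was 15.23 to 15.28 on tissue arrays, 11.16 to 11.45 in cultured cells and 10.63 to 10.71 in neurospheres, and that of the neuron list was 16.05 to 16.19, 9.29 to 9.40 and 9.47 to 9.86. Fibroblast markers rose in 7 of 8 cases in neurospheres and in 5 of 8 in cultured cells, where 1 fell, and their summed signal was 14.50 to 14.67 in tissue, 15.67 to 15.83 in cultured cells and 15.99 to 16.07 in neurospheres. The part of RNA integrity and of cell makeup in the differences below was not tested, and because the arrays measured RNA of whole nerve or whole cultures, fewer cells of a type and less RNA per cell cannot be told apart.

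Against nerve tissue, Itgb1, the beta subunit shared by most matrix receptors, had the largest rises in the cultures, and Itga5, its partner in the fibronectin receptor, rose from a tissue signal under the background gauge, while Itgb4 and Itga4 were among those that fell most. In neurospheres 11 members rose, 8 fell and 15 did not pass the test (limma, with a fold change over 1.5 and an adjusted p under 0.05 by Benjamini-Hochberg, taken over every gene). That is 55.9% of the members, where 42.7% of all genes passed, 21.7% upward and 21% downward. In cultured cells 7 members rose, 9 fell and 18 did not pass, or 47.1%, where 42.4% of all genes passed, 20.4% upward and 22% downward. The median difference of the members was 0.047 in neurospheres and -0.084 in cultured cells, beside 0.047 and -0.009 for all genes, so members moved in both directions. With the probe sets of a gene averaged, 4 members fell in neurospheres in place of 8. These comparisons share the tissue arrays.

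Between the cultures, Itgb3 and Itgb2 showed the largest rises in neurospheres. There 9 members rose, 4 fell and 21 did not pass, or 38.2%, where 17.9% of all genes passed, 9% upward and 8.91% downward. The median size of the difference, regardless of sign, was 0.31 for the members and 0.20 for all genes. Integrins, which are 24 of the 34 members, supplied 7 of the 9 rises and 2 of the 4 falls. The share that passed was 37.5% of the integrins and 40% of the laminin chains. The count of falls depended on single arrays, with 1 left without neurosphere array 3 and 2 without cultured cell array 1. In all, 23 members (67.6%) passed in at least 1 comparison, where 52.2% of all genes did, and 11 passed in none. The groups did not overlap for 24 members (70.6%) in neurospheres against tissue, 24 (70.6%) in cultured cells against tissue and 19 (55.9%) between the cultures, and these included every member that passed. Over all genes the shares were 68.1%, 68.6% and 48.4%, so groups without overlap were common on these arrays.

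**Figure D1:**
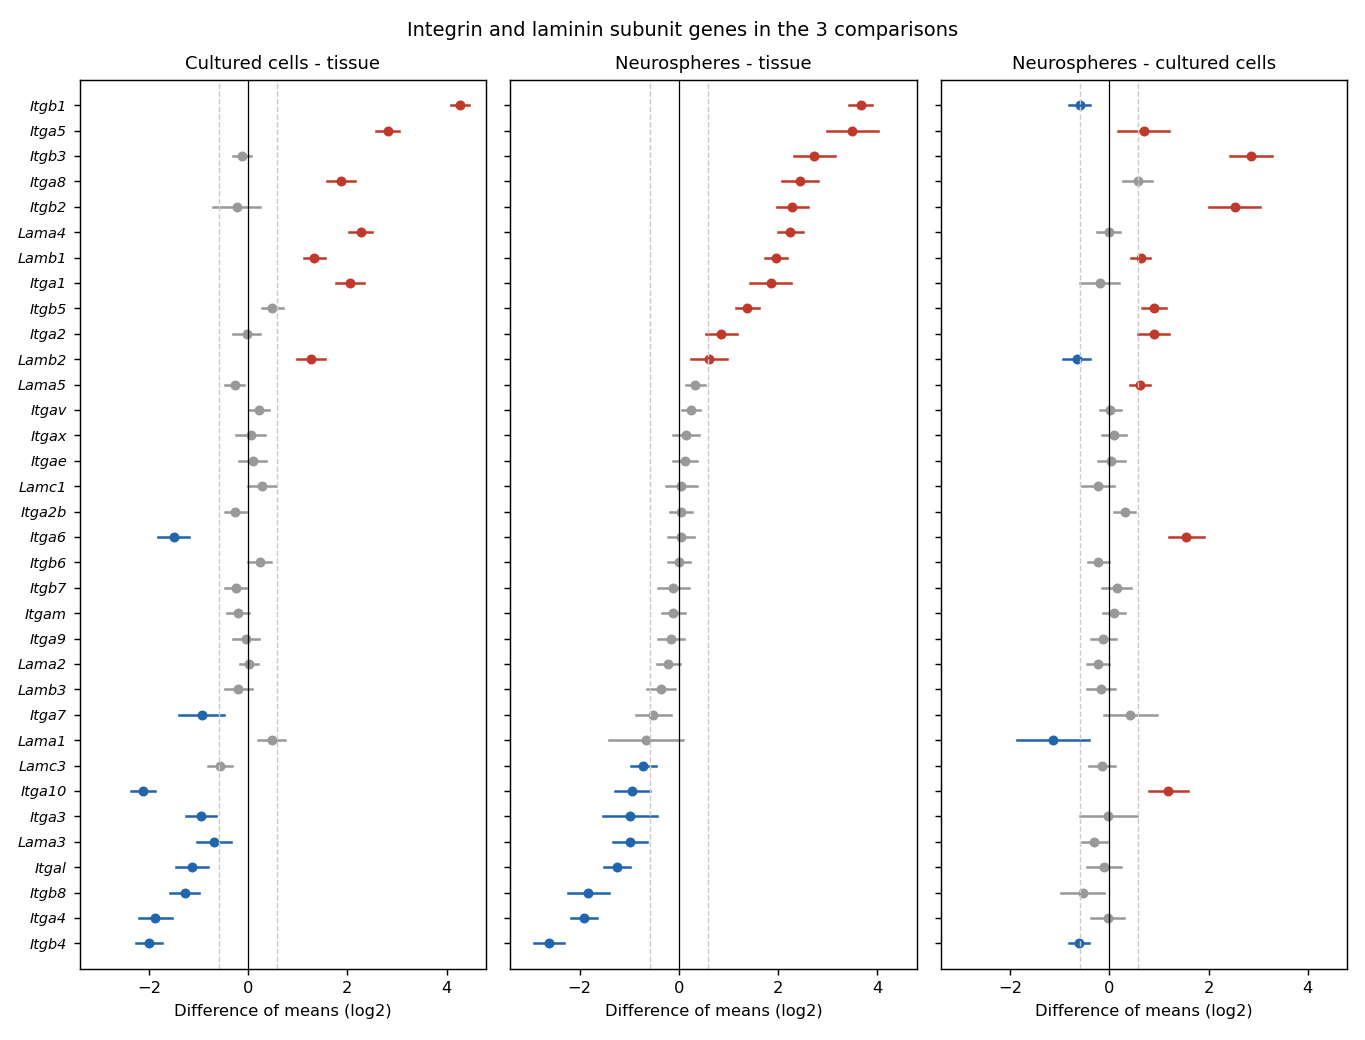
Difference of group means (x axis, log2) of the 34 integrin and laminin subunit genes in the 3 comparisons, with 95% confidence intervals; red points rose and blue points fell by the test, grey points did not pass, and dashed lines mark a fold change of 1.5. Itgb1 lay at 4.26 in cultured cells and 3.66 in neurospheres against tissue, and Itgb4 at -2.01 and -2.62.

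The promoters of 4 of these genes are shown because Itgb1 and Itga5 rose, and Itga4 and Itgb8 fell, in both cultures against tissue. They were chosen after their values were seen, among the 22 members that matched the RefSeq promoter table. Each window is the 250 bases before the annotated start site, in RefSeq sequence of the build GRCm38.p6, written 5' to 3' on the strand of the gene. The windows are chr8:128685404-128685653 (plus strand) for Itgb1, chr15:103366792-103367041 (minus strand) for Itga5, chr2:79255176-79255425 (plus strand) for Itga4 and chr12:119238277-119238526 (minus strand) for Itgb8. Capitals mark a GC box, the letters GGGCGG searched on both strands, so that CCGCCC is a match on the other strand.
Itgb1: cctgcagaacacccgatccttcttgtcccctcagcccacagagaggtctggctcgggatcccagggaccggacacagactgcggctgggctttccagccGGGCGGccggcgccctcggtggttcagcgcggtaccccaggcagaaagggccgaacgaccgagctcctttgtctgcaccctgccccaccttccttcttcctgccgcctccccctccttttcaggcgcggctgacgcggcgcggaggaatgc
Itga5: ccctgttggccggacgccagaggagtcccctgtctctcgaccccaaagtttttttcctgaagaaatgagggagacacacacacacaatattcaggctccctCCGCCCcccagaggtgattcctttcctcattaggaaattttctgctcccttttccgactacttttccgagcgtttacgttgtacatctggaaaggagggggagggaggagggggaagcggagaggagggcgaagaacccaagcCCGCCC
Itga4: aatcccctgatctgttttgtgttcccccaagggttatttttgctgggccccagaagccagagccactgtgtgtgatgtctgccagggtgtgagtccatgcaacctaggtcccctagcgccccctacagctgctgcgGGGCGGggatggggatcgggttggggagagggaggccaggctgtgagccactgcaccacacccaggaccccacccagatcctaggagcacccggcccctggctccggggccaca
Itgb8: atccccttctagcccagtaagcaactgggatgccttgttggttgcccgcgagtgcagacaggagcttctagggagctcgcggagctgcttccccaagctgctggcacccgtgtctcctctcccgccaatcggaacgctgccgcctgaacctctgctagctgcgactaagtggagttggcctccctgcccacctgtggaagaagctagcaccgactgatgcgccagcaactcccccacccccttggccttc

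Itgb1 and Itga4 each held 1 GC box, whose first base lay 151 and 114 bases before the start site. Itga5 held 2, at 149 and 6 bases before it, and Itgb8 held none. A GC box was present in 32.7% of all 32851 windows of this length. The 22 matched members had 25 windows, of which 9 (36.0%) held a GC box, in 8 genes. None of the 4 windows shown held the AP-1 letters TGANTCA, which occurred in 6.7% of all windows and in 1 of the 25 member windows (4.0%). The letters are a description of the windows and not a count of bound sites, and these data do not measure binding.

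Itgb1, which pairs with most alpha subunits that bind collagen, laminin and fibronectin, had the largest difference of any member. Itgb1 was at 7.91, 7.92 and 8.02 on tissue arrays 1 to 3, 12.28, 12.19 and 12.18 on the cultured cell arrays and 11.74, 11.64 and 11.47 on the neurosphere arrays. Both cultures lay far above tissue with no overlap, and the cultured cells lay above the neurospheres. Itgb1 was higher by 4.26 (log2, SE 0.081, adjusted p = 2.02e-10) in cultured cells than in tissue, a fold change of 19.2, and by 3.66 (SE 0.098, adjusted p = 7.94e-09) in neurospheres, a fold change of 12.7. Between the cultures it fell by 0.60 (adjusted p = 0.00144) in neurospheres, a fold change of 1.52. That last call lay at the fold threshold, and was lost without cultured cell array 1 (-0.57) or neurosphere array 3 (-0.53). It was also lost with the mean of the probe sets (-0.38). Other probe sets, at -0.58, -0.48, -0.11 and 0.10, did not pass between the cultures, and another, under the background gauge, fell by 0.59. Of the 6 probe sets of Itgb1, 5 rose in both cultures against tissue. Some of these 5, with highest group means of 5.45 and 4.55, lay under the background gauge on every array, as did the remaining one.

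Of the alpha subunits that bind the RGD motif of matrix proteins, Itga5 and Itga8 rose in both cultures, and Itgav did not pass on the probe set used. The Itga5 signals were 4.36, 4.64 and 4.38 in tissue, 7.16, 7.33 and 7.32 in cultured cells and 8.14, 8.35 and 7.39 in neurospheres. Itga5, the alpha subunit of the main fibronectin receptor, was under the background gauge in tissue and above it on all culture arrays. It rose by 2.81 (SE 0.10, adjusted p = 9.38e-09) in cultured cells and by 3.50 (SE 0.22, adjusted p = 1.52e-06) in neurospheres, and all 4 of its probe sets rose in both. Because the tissue signal was close to background, no fold change is given, and counted from the gauge in place of the tissue signal the differences were 1.57 and 2.26. The step from cultured cells to neurospheres, 0.69 (SE 0.22, adjusted p = 0.0415), held by little, since the call was lost when any array other than neurosphere array 3 was left out, with adjusted p of 0.0883 to 0.115, and with a trended robust prior (adjusted p = 0.0539).

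In tissue Itga8 had signals of 9.98, 9.99 and 10.40, against 12.02, 11.88 and 12.08 in cultured cells and 12.29, 12.73 and 12.68 in neurospheres. Itga8, a receptor subunit for fibronectin, tenascin and nephronectin, was lowest in tissue and highest in neurospheres, and no groups overlapped. The rises against tissue were 1.87 (SE 0.12, adjusted p = 6.37e-07) in cultured cells and 2.44 (SE 0.15, adjusted p = 1.4e-06) in neurospheres. Its other probe set, under the gauge in tissue, rose by 4.21 and 5.13. The difference between the cultures, 0.58 (adjusted p = 0.00858), stayed under the fold threshold, and passed it without cultured cell array 1 (0.59) or 3 (0.62) or neurosphere array 1 (0.71). It also passed on the other probe set (0.92, adjusted p = 0.00369, over all probe sets) and with the mean of the probe sets (0.75, adjusted p = 0.0048).

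Itgav, the alpha subunit shared by the vitronectin receptors, depended on the probe set. The probe set used lay at 12.01 to 12.38 on all 9 arrays and differed from tissue by 0.22 (95% confidence interval 0.02 to 0.42) in cultured cells and 0.24 (0.06 to 0.42) in neurospheres. Another probe set rose by 3.06 (adjusted p = 1.75e-09, over all probe sets) and 2.59 (adjusted p = 1.22e-07), from below the background gauge in tissue. The remaining 3 probe sets of Itgav lay near or under the gauge and did not pass.

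The beta subunits that pair with alpha V took different courses. For Itgb3, the arrays gave 6.16, 6.13 and 6.16 (tissue), 5.999, 5.97 and 6.10 (cultured cells) and 9.35, 8.70 and 8.59 (neurospheres). Itgb3, which also pairs with Itga2b on platelets, was high only on the neurosphere arrays, while tissue and cultured cells lay between 5.97 and 6.16. It rose in neurospheres by 2.73 (SE 0.18, adjusted p = 1.99e-06) against tissue and by 2.86 (SE 0.18, adjusted p = 1.33e-05) against cultured cells, fold changes of 6.64 and 7.25. Its difference in cultured cells against tissue was -0.13 (95% confidence interval -0.31 to 0.05).

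Itgb5 was at 10.71, 10.53 and 10.62 on tissue arrays 1 to 3, 10.98, 11.17 and 11.17 on the cultured cell arrays and 12.16, 11.98 and 11.88 on the neurosphere arrays. Itgb5, a vitronectin receptor subunit, stood in the order tissue, cultured cells, neurospheres, with no overlap. It rose in neurospheres by 1.38 (SE 0.10, adjusted p = 4.01e-06) against tissue and by 0.90 (SE 0.10, adjusted p = 0.000279) against cultured cells. The difference between cultured cells and tissue, 0.48 (adjusted p = 0.0012), did not reach the fold threshold on the probe set used, which is marked as shared with other transcripts. The other 3 probe sets of Itgb5 rose there, by 0.74, 1.19 and 1.49.

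The Itgb8 signals were 11.68, 12.01 and 11.97 in tissue, 10.41, 10.56 and 10.83 in cultured cells and 9.63, 10.22 and 10.34 in neurospheres. Itgb8, which with alpha V binds latent TGF-beta, ran the other way, with tissue above both cultures on every array. It fell by 1.28 (SE 0.13, adjusted p = 1.39e-05) in cultured cells and by 1.82 (SE 0.18, adjusted p = 2.87e-05) in neurospheres. The further difference of -0.54 between the cultures did not pass (adjusted p = 0.0602), but did without neurosphere array 3 (-0.68, adjusted p = 0.0393). Itgb6, the epithelial partner of alpha V, lay at 3.43 to 3.90 on all arrays. Of the 7 genes of this RGD group, 2 rose and 1 fell in cultured cells (42.9%), 4 rose and 1 fell in neurospheres against tissue (71.4%), and 3 rose and none fell in neurospheres against cultured cells (42.9%). The shares of all genes were 42.4%, 42.7% and 17.9%.

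**Figure D2:**
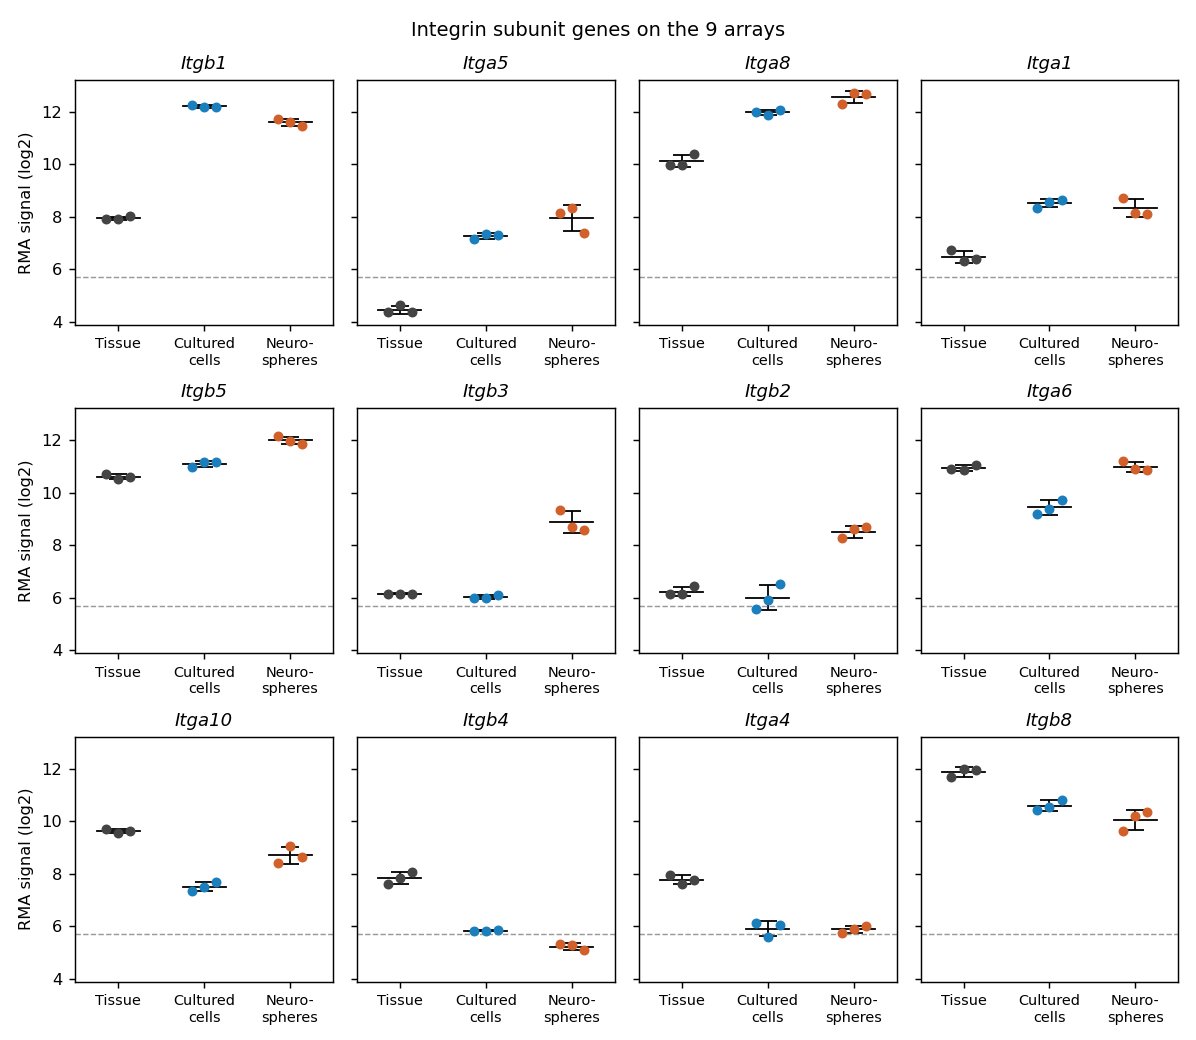
RMA signal (y axis, log2) of 12 integrin subunit genes on the 3 arrays of each group, with lines for the mean and bars for ± SD; the dashed line is the background gauge at 5.70. Itgb1, Itga5, Itga8 and Itga1 were higher in both cultures than in tissue, Itgb3 and Itgb2 were high in neurospheres only, and Itgb4, Itga4 and Itgb8 were highest in tissue.

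Of the collagen receptors, which all pair with beta 1, each of the 3 measured followed its own pattern. In tissue Itga1 had signals of 6.72, 6.30 and 6.40, against 8.35, 8.56 and 8.65 in cultured cells and 8.72, 8.16 and 8.09 in neurospheres. Itga1, a receptor for collagen IV and laminin, was higher on all culture arrays than on any tissue array, and the cultures overlapped. It rose by 2.05 (SE 0.13, adjusted p = 3.99e-07) in cultured cells and 1.85 (SE 0.18, adjusted p = 2.32e-05) in neurospheres, and its second probe set rose by 1.74 and 1.61. Smooth muscle and pericyte markers, a cell type that uses Itga1 and Itga8, rose in 5 of 8 cases and fell in 2 in cultured cells, with a summed signal of 14.19 to 14.47 there, 12.89 to 13.29 in tissue and 12.99 to 13.23 in neurospheres. In neurospheres against tissue 1 of the 8 markers rose and 3 fell. Their part in these rises was not tested.

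For Itga10, the arrays gave 9.72, 9.55 and 9.64 (tissue), 7.34, 7.50 and 7.69 (cultured cells) and 8.39, 9.05 and 8.66 (neurospheres). Itga10, known from cartilage, was highest in tissue, lowest in cultured cells and intermediate in neurospheres, with no overlap. It fell by 2.13 (SE 0.11, adjusted p = 8.48e-08) in cultured cells, and rose by 1.19 (SE 0.17, adjusted p = 0.000846) from there to neurospheres, which still lay 0.94 below tissue (adjusted p = 0.000702). Itga2, the platelet and epithelial collagen receptor, lay near background at 5.44 to 5.84 in tissue and cultured cells. It rose in neurospheres to 6.29 to 6.75, by 0.86 (adjusted p = 0.000565) against tissue and 0.89 (adjusted p = 0.00133) against cultured cells.

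All 4 genes of the list of laminin-binding integrins, Itga3, Itga6, Itga7 and Itgb4, fell in cultured cells against tissue. Of all genes, 22% fell there. The list leaves out Itga1 and Itgb1, which also take part in binding laminin and which rose there by 2.05 and 4.26. In neurospheres Itga3 and Itgb4 fell, and Itga6 and Itga7 did not pass, where 21% of all genes fell. Itga6 was at 10.91, 10.88 and 11.07 on tissue arrays 1 to 3, 9.20, 9.39 and 9.75 on the cultured cell arrays and 11.20, 10.92 and 10.86 on the neurosphere arrays. Itga6, which pairs with beta 1 or beta 4 on Schwann cells, was low in cultured cells, while neurospheres and tissue overlapped. It fell by 1.51 (SE 0.14, adjusted p = 5.99e-06) in cultured cells, and rose by 1.55 (SE 0.15, adjusted p = 0.000117) between cultured cells and neurospheres. In neurospheres against tissue it differed by 0.04, with a 95% confidence interval of -0.21 to 0.30, and its second probe set gave -1.51, 1.56 and 0.05 for the same differences.

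The Itgb4 signals were 7.61, 7.83 and 8.07 in tissue, 5.80, 5.83 and 5.86 in cultured cells and 5.31, 5.27 and 5.08 in neurospheres. Itgb4, the partner of Itga6 on myelinating Schwann cells, perineurium and epithelia, was highest in tissue and under the background gauge on every neurosphere array. It fell by 2.01 (log2, SE 0.12, adjusted p = 2.48e-07) in cultured cells and fell by 2.62 (SE 0.13, adjusted p = 2.94e-07) in neurospheres. Counted from the gauge in place of the neurosphere signal, the last difference was -2.14. Between the cultures it fell by 0.61 (adjusted p = 0.000967), a difference of -0.14 when counted from the gauge and a call lost without neurosphere array 3 (-0.54). Of 8 epithelial markers, 6 were lower in neurospheres than in tissue and 6 lower in neurospheres than in cultured cells. In cultured cells against tissue 4 were higher and 2 lower, with a median difference of 0.38. Their summed signal was 12.16 to 12.31 in tissue, 10.33 to 10.76 in cultured cells and 8.34 to 8.85 in neurospheres. The 2 that were lower in cultured cells were Cdh1 (-3.68) and Epcam (-2.74). The part of the epithelial and of the Schwann cell markers was not tested.

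Itga3, a laminin receptor of epithelia and Schwann cells, lay at 8.36 to 8.69 in tissue, 7.29 to 7.77 in cultured cells and 6.96 to 8.01 in neurospheres. It fell by 0.95 (adjusted p = 0.000163) and 0.98 (adjusted p = 0.0061) in the cultures, on the probe set used alone, since its other 2 probe sets differed by between -0.09 and 0.15 and did not pass. With the mean of the 3, neither fall passed. Itga7, which binds laminin on muscle and Schwann cells, lay at 7.07 to 7.34 in tissue, 5.79 to 6.70 in cultured cells and 6.44 to 7.00 in neurospheres. It fell by 0.94 (adjusted p = 0.00225) in cultured cells. In neurospheres its difference of -0.52 (adjusted p = 0.0183) passed the fold threshold without neurosphere array 2 (-0.69) and with arrays centred on the more highly expressed genes (-0.61).

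In tissue Itga4 had signals of 7.94, 7.62 and 7.77, against 6.11, 5.58 and 6.03 in cultured cells and 5.73, 5.91 and 5.99 in neurospheres. Itga4, which binds fibronectin and VCAM-1 and is found on leukocytes and neural crest cells, was higher in every tissue sample than in any culture, and the cultures overlapped near background. It fell by 1.87 (SE 0.15, adjusted p = 2.06e-06) in cultured cells and by 1.90 (SE 0.11, adjusted p = 9.7e-07) in neurospheres. Its other 4 probe sets differed by between -0.61 and 0.23, and 1 of them fell in neurospheres. With the mean of the 5 probe sets neither fall of Itga4 passed (-0.46 in neurospheres, -0.40 in cultured cells). Itga9, related to Itga4 and a receptor for tenascin, lay at 5.69 to 6.13 on all arrays and did not pass. One other probe set of Itga9 was higher in cultured cells by 0.71 (adjusted p = 0.000676, over all probe sets).

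Among the 6 measured integrin subunits of leukocytes, Itgal fell in both cultures and Itgb2 rose in neurospheres, while Itgae, Itgam, Itgax and Itgb7 passed in no comparison. For Itgal, the arrays gave 6.27, 5.98 and 6.09 (tissue), 5.24, 4.68 and 5.04 (cultured cells) and 4.95, 4.70 and 4.97 (neurospheres). Itgal, the alpha subunit of LFA-1, was above background in tissue only, and fell by 1.13 (SE 0.14, adjusted p = 7.39e-05) in cultured cells and by 1.24 (SE 0.11, adjusted p = 1.63e-05) in neurospheres. Both culture means lay under the gauge, and counted from it each difference was -0.41, less than the fold threshold. With the mean of its probe sets neither fall passed (-0.45 and -0.43, neurospheres first). Leukocyte markers fell beside it, 6 of 8 in each culture, and their summed signal was 11.87 to 12.00 in tissue, 9.22 to 9.56 in cultured cells and 9.18 to 9.59 in neurospheres. Itgam and Itgax, the alpha subunits of macrophages and dendritic cells, lay at 3.58 to 3.96 and 4.68 to 5.15 on all arrays, under the gauge even in tissue.

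Itgb2 was at 6.12, 6.15 and 6.43 on tissue arrays 1 to 3, 5.57, 5.93 and 6.51 on the cultured cell arrays and 8.27, 8.61 and 8.69 on the neurosphere arrays. Itgb2, the beta subunit that Itgal, Itgam and Itgax share, was high on all neurosphere arrays, and tissue and cultured cells overlapped. It rose in neurospheres by 2.29 (SE 0.14, adjusted p = 9.86e-07) against tissue and by 2.52 (SE 0.23, adjusted p = 7.05e-05) against cultured cells, fold changes of 4.88 and 5.75, on the single probe set of this gene. Itgal, Itgam and Itgax lay under the gauge on the same arrays. None of the 8 leukocyte markers rose in neurospheres in either comparison. Ptprc, the pan-leukocyte phosphatase CD45, and Cx3cr1 had neurosphere means under the gauge (4.62 and 5.61). The other markers lay over it there, namely Cd68 (6.89), Laptm5 (6.83), Csf1r (6.68), Cd52 (6.34), Adgre1 (6.21) and Tyrobp (6.20). The part of leukocytes in the rise of Itgb2 was not tested. Itgb7 and Itgae, which form a receptor of lymphocytes, lay at 5.47 to 5.95 and 4.43 to 4.91 and did not pass.

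Itga2b, the alpha subunit of the platelet fibrinogen receptor and itself one of the 5 platelet markers, lay at 7.12 to 7.65 on all arrays and did not pass in any comparison. Of the other 4 platelet markers, 1 rose and 1 fell in each culture against tissue. The summed signal of the 5 was 8.98 to 9.18 in tissue, 8.74 to 8.79 in cultured cells and 8.92 to 8.99 in neurospheres.

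Of the laminin chains, Lama4, Lamb1 and Lamb2 rose in both cultures against tissue, Lama3 fell in both, and Lamc3 fell in neurospheres. The Lama4 signals were 8.36, 8.40 and 8.62 in tissue, 10.81, 10.58 and 10.78 in cultured cells and 10.60, 10.86 and 10.68 in neurospheres. Lama4, an alpha chain found, among other places, in vessel and mesenchymal basement membranes, was low on all tissue arrays and level in the cultures. It rose by 2.26 (SE 0.10, adjusted p = 4.54e-08) in cultured cells and by 2.25 (SE 0.11, adjusted p = 2.52e-07) in neurospheres, fold changes of 4.81 and 4.76, and its second probe set rose by 2.65 and 2.49. Between the cultures it differed by -0.01, with a 95% confidence interval of -0.25 to 0.22. Of 8 endothelial markers, 1 rose and 5 fell in cultured cells, and 2 rose and 6 fell in neurospheres. Their summed signal was 11.59 to 11.69 in tissue, 12.17 to 12.36 in cultured cells and 11.90 to 12.48 in neurospheres. In the cultures, though not in tissue, most of this sum came from Emcn, which rose by 1.60 in cultured cells and 1.66 in neurospheres. Cldn5 and Vwf fell to means under the gauge in both cultures. The part of the endothelial markers in the rise of Lama4 was not tested.

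In tissue Lamb1 had signals of 10.81, 10.64 and 10.83, against 12.10, 12.02 and 12.17 in cultured cells and 12.63, 12.81 and 12.74 in neurospheres. Lamb1, the beta chain of laminins with alpha 2 or alpha 4, rose from tissue to cultured cells and again to neurospheres, with no overlap. The steps were 1.34 (SE 0.090, adjusted p = 7.45e-07) and 0.63 (SE 0.086, adjusted p = 0.000711), and neurospheres exceeded tissue by 1.96 (SE 0.095, adjusted p = 2.57e-07), a fold change of 3.90. The probe set used is marked as shared. The other 3 probe sets rose in neurospheres against tissue by 2.81, 3.81 and 1.53, and 2 of them rose in cultured cells, by 2.07 and 3.15.

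For Lamb2, the arrays gave 8.06, 8.47 and 8.52 (tissue), 9.60, 9.59 and 9.66 (cultured cells) and 9.14, 9.04 and 8.70 (neurospheres). Lamb2, the beta chain of synaptic and mature vessel basement membranes, was highest in cultured cells and lowest in tissue, with no overlap. It rose by 1.27 (SE 0.12, adjusted p = 1.01e-05) in cultured cells, and fell by 0.66 (SE 0.12, adjusted p = 0.00309) from there to neurospheres. Its rise of 0.61 (adjusted p = 0.00831) in neurospheres against tissue lay at the fold threshold, and was lost without tissue array 1 (0.46), neurosphere array 1 (0.52) or neurosphere array 2 (0.57), and with arrays centred on the more highly expressed genes (0.51). The fall between the cultures was lost without neurosphere array 3 (-0.53).

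Lama1 was at 6.70, 6.86 and 7.16 on tissue arrays 1 to 3, 7.44, 7.30 and 7.41 on the cultured cell arrays and 7.11, 5.79 and 5.82 on the neurosphere arrays. Lama1, the alpha chain of embryonic basement membranes, split the neurosphere samples, with array 1 inside the range of tissue and arrays 2 and 3 near background. It fell in neurospheres against cultured cells by 1.14 (SE 0.32, adjusted p = 0.0231), a call lost when any array other than neurosphere array 1 was left out, with adjusted p of 0.0565 to 0.0802, and with a trended robust prior (adjusted p = 0.0562). Against tissue the neurospheres differed by -0.67 (adjusted p = 0.107), and by -1.10 (adjusted p = 0.000183) without neurosphere array 1. In cultured cells the difference of 0.48 (adjusted p = 0.00623) was under the fold threshold, and passed it without tissue array 3 (0.60) or with quantile normalization (0.71).

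Lama2 and Lamc1, which are among the chains of the Schwann cell basement membrane, did not pass in any comparison. Lama2 lay at 10.47 to 10.56 in tissue, 10.48 to 10.61 in cultured cells and 10.13 to 10.42 in neurospheres. Its differences were 0.02 (95% confidence interval -0.17 to 0.20) in cultured cells and -0.21 (-0.44 to 0.02) in neurospheres against tissue, while all 5 Schwann markers fell. Lamc1, the gamma chain of most laminins, lay at 9.37 to 10.04 on all arrays, and differed by 0.28 (0.0002 to 0.56) and 0.05 (-0.26 to 0.36). Its second probe set rose in both cultures, by 0.86 and 0.76.

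Lama5, the alpha chain of mature epithelial and vessel basement membranes, lay at 7.00 to 7.09 in tissue, 6.72 to 6.91 in cultured cells and 7.34 to 7.42 in neurospheres. It rose in neurospheres against cultured cells by 0.61 (adjusted p = 0.000927), a call lost without cultured cell array 1 (0.58) or 2 (0.57) or with quantile normalization (0.58), and absent on its other 2 probe sets. Lamc3 lay at 5.90 to 6.11 in tissue and under the gauge in both cultures, and fell in neurospheres by 0.71 (adjusted p = 0.000386), a difference of -0.33 when counted from the gauge and a call lost with quantile normalization (-0.48). In cultured cells its difference of -0.56 passed the fold threshold without tissue array 2 (-0.63) or cultured cell array 3 (-0.64) and with arrays centred on the more highly expressed genes (-0.65), and its second probe set fell by 1.17 and 1.13 in the cultures. Lama3, of epithelial basement membranes, had group means under the gauge throughout, so its falls of 0.69 and 0.99 are differences within the background range, and the first was lost without tissue array 3 (-0.51) or with quantile normalization (-0.45), and both with the mean of its probe sets. Lamb3, its partner, lay at 4.43 to 5.10 and did not pass.

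**Figure D3:**
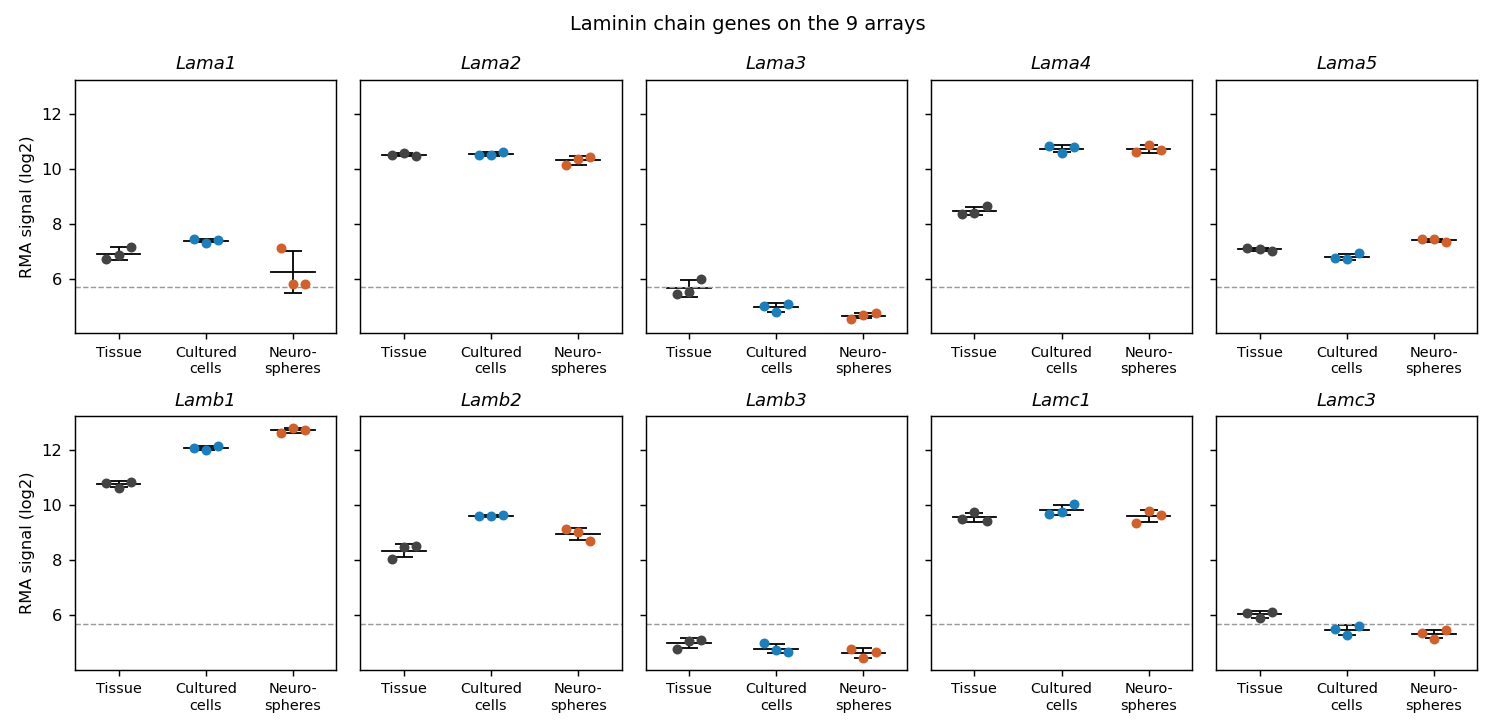
RMA signal (y axis, log2) of the 10 laminin chain genes on the 3 arrays of each group, with lines for the mean and bars for ± SD; the dashed line is the background gauge at 5.70. Lama4, Lamb1 and Lamb2 were lower in tissue than in either culture, Lama2 stayed between 10.13 and 10.61 on all 9 arrays, and Lama1 on neurosphere array 1 lay apart from the other neurosphere arrays.

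**Figure D4:**
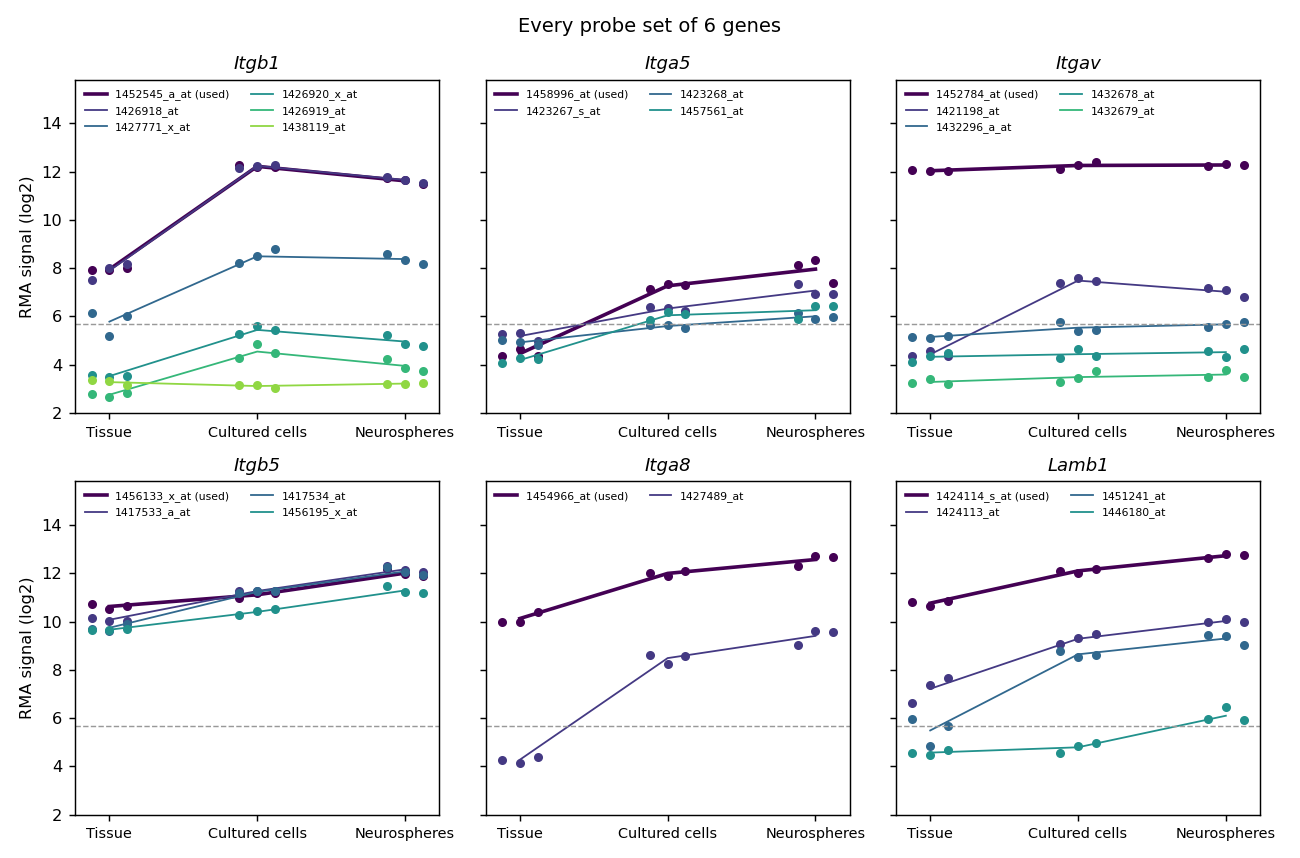
RMA signal (y axis, log2) of every probe set of 6 genes on the 3 arrays of each group, with lines through the group means, the thick line for the probe set used and a dashed line for the background gauge at 5.70. The probe sets of Itgb1, Itga5, Itga8 and Lamb1 that lay above the gauge in a culture were higher there than in tissue, while for Itgav the probe set used was nearly level and another rose by 3.06 in cultured cells.

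The genes that work beside these subunits were read from 4 lists taken from textbook knowledge, and are described by counts and medians. Beside them stand the values of all genes, of which 42.7% passed in neurospheres against tissue (median 0.047), 42.4% in cultured cells against tissue (median -0.009) and 17.9% between the cultures (median 0.051). No test was run on a list. Among the other parts of the basement membrane and the further receptors of laminin, 14 of 25 measured genes rose and 6 fell in neurospheres against tissue (80%, median 0.595), and 9 rose and 6 fell in cultured cells (60%, median 0.44). The largest rises in neurospheres were of Sdc1, a heparan sulfate proteoglycan (6.30), Nid2, a nidogen that links laminin to collagen IV (4.01), and Col15a1 (3.37). The largest falls were of the collagen IV chain Col4a4 (-3.62), Ntn4, a short laminin-like netrin (-3.59), and Drp2, of the dystroglycan complex of myelinating Schwann cells (-3.36). In cultured cells Nid2 (4.78), Sdc1 (3.91) and Nid1 (1.82) led the rises and Col4a4 (-3.90), Col4a3 (-2.98) and Drp2 (-2.81) the falls. Between the cultures 4 rose and 3 fell (28%, median -0.21, beside 17.9% of all genes), led by Col15a1 (4.01), Sdc1 (2.39) and Col18a1 (0.92) in neurospheres and by Ntn4 (-3.25), Dmd (-1.88) and Nid2 (-0.76) downward. Col4a3 and Col4a4 were under the background gauge in both cultures, so their falls end at a signal close to background.

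Of 26 measured ligands, 15 rose and 8 fell in neurospheres (88.5%, median 1.45) and 15 rose and 6 fell in cultured cells (80.8%, median 1.88), beside 42.7% and 42.4% of all genes. Tnc, the tenascin ligand of alpha 8 and alpha 9, rose by 6.01 in neurospheres and 6.90 in cultured cells from a tissue mean under the gauge (5.56), and the thrombospondin gene Thbs1 by 4.47 and 6.24. Icam1, a ligand of the beta 2 integrins, rose by 4.51 in neurospheres, and Thbs2 by 4.57 in cultured cells. The largest falls in neurospheres were of Cdh1, E-cadherin, the ligand of the integrin of Itgae and Itgb7 (-6.56), Tnr (-4.17) and L1cam (-3.80). In cultured cells they were of Vtn, vitronectin, the ligand of the alpha V integrins (-5.48), Tnr (-4.07) and L1cam (-3.75). Between the cultures 6 rose and 10 fell (61.5%, median -0.295, beside 17.9% of all genes), with Vtn (2.46), Icam1 (1.72) and Tgfb1 (1.67) highest and Col1a1 (-3.69), Fbln5 (-3.65) and Cdh1 (-2.88) lowest. The means under the gauge were those of Cdh1 in neurospheres, of Tnr in both cultures, of Vtn in cultured cells and of Tgfb1 in tissue and cultured cells. Counted from the gauge, the differences were smaller, as for Tnr (-1.59 in each culture) and Vtn between the cultures (1.38).

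Of 35 measured genes of the complex that joins integrins to actin, 13 rose and 8 fell in neurospheres (60%, median 0.295) and 15 rose and 6 fell in cultured cells (60%, median 0.19), beside 42.7% and 42.4% of all genes. Pdlim7, an actin-associated LIM protein, rose by 2.65 and 3.10, and Flna, the actin crosslinker filamin A, by 1.64 and 2.86. Vasp rose by 1.75 in neurospheres and Zyx, zyxin, by 2.37 in cultured cells. The largest falls in both were of Tns1, a tensin (-3.47 and -3.04), Lims2, a partner of integrin-linked kinase (-1.83 and -1.35), and Fermt3, the kindlin of blood cells (-1.67 and -1.84), whose means lay under the gauge in both cultures. Between the cultures 4 rose and 10 fell (40%, median -0.22, beside 17.9% of all genes). Parvb (1.42), Ptk2b (0.92) and Pxn, paxillin (0.92), rose in neurospheres, and Tln2, a talin (-1.86), Flna (-1.21) and Vcl, vinculin (-1.20), fell.

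Of the 14 partners of leukocyte integrins, 2 rose and 6 fell in neurospheres against tissue (57.1%, median -0.44) and 1 rose and 9 fell in cultured cells (71.4%, median -0.95), beside 42.7% and 42.4% of all genes. The largest falls in neurospheres and in cultured cells were of Ptprc (-3.75 and -3.39), Lcp1, the leukocyte plastin (-3.52 and -3.15), and Tyrobp, a signalling adaptor (-2.94 and -2.59). The culture means of Ptprc and Lcp1 lay under the gauge. Apbb1ip, the Rap1 effector RIAM, rose by 0.65 and 0.69, and the adaptor Skap2 rose by 1.20 in neurospheres. Between the cultures 3 rose and none fell (21.4%, median 0.11, beside 17.9% and 0.051 for all genes). They were Fyb (1.54) and Skap2 (1.28), adaptors of integrin activation, and the actin regulator Coro1a (0.78), whose mean in cultured cells lay under the gauge.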

How the data were processed

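RNA of 9 samples, 3 each of tissue, cultured cells and neurospheres, was hybridised to Affymetrix mouse arrays, from 100 ng of total RNA. The authors deposited log2 signals that, by the labels, RMA in Affymetrix Expression Console had produced. MAS5 is named as well, and tool versions are not given in the sources used here. The median signal of a group's arrays was 6.15 to 6.27 (log2).

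There were 45101 probe sets: 64 controls, 34945 with 1 gene name, 932 with several and 9160 without any. For each of the 18193 genes the probe set brightest on average over the 9 arrays was used. Each comparison was fitted on its own 6 arrays by lmFit and eBayes of limma 3.58.1 (R 4.3.3, two-sided), and passing took a fold change over 1.5 together with an adjusted p under 0.05 (Benjamini-Hochberg, every gene). Probe sets on their own were adjusted over the 34945 probe sets. The methods of the study name an unpaired t-test, which was run as an alternative. The steps were tested on simulated data with 200 changed genes per comparison.

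The members, the 12 gene lists (4 of partners, 8 of cell type markers) and the tests were chosen with earlier results of these data known. Of the 167 places on the lists, 9 were not analysed here. Values on all 9 arrays are given for the 17 members with a log2 fold change of 1 or more in a comparison where they passed and a group mean over the background gauge. Of each partner list, the 3 largest rises and the 3 largest falls that passed are named for each comparison.

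Alternatives were centring on the upper part of the genes by expression, quantile normalization, averaging a gene's probe sets, every probe set on its own, dropping probe sets marked as shared, dropping the dimmest 40% of genes, all 9 arrays in 1 fit, a trended robust prior, the t-test with and without adjustment, no fold threshold or one of 2, a replicate block, and each array left out in turn. Promoter sequences are those of RefSeq (GRCm38.p6), in which 22 of the 34 members matched.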

Additional observations from a re-analysis of the deposited data

How the results depend on the processing

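The members that fell in neurospheres against tissue, 8, were 4 with the mean of the probe sets, 4 without the 40% of genes with the lowest mean, which tested fewer members, and 4 with a fold over 2. The members that rose in cultured cells, 7, were 11 when a gene counted with at least 1 probe set called. Between the cultures, 4 rose and 1 fell with a fold over 2, beside 9 and 4. Without 1 array, the members that rose were 10 to 11 in neurospheres against tissue, 7 to 8 in cultured cells against tissue and 7 to 9 between the cultures, and those that fell were 8 to 9, 8 to 10 and 1 to 4. The lowest of these, 1, was without neurosphere array 3, and without cultured cell array 1 there were 2. The unpaired t-test of the methods gave 11 rises and 8 falls in neurospheres, 7 and 9 in cultured cells and 8 and 3 between the cultures at its own threshold, and 10 and 7, 7 and 9, and 8 and 3 after Benjamini-Hochberg adjustment. No member that passed changed direction under a scaling, a filter or a test.

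Over all genes, with no fold threshold 6013 rose in neurospheres against tissue, 5705 in cultured cells against tissue and 3488 between the cultures, where 2879 fell. With a fold over 2, 2359, 2214 and 752 rose, and 866 fell between the cultures. Without the 40% of genes with the lowest mean 2540 fell in neurospheres and 2667 in cultured cells against tissue.

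Some probe sets ran against the one used, taking only cases where the one used or the other passed. In neurospheres against tissue they were those of Itga3 (0.065 and 0.042), Itga4 (0.11 and 0.23), Itgal (0.34), Itgb1 (-0.061) and Lama3 (0.13), in cultured cells those of Itga3 (0.094), Itga4 (0.12 and 0.21), Itga9 (0.71), Itgal (0.27) and Itgb1 (-0.16), and between the cultures that of Itgb1 (0.10). None of these passed except that of Itga9, and the cause was not tested. Opposite signs where neither probe set passed are not listed, as for Lama5 in neurospheres against tissue (0.33 on the one used and -0.34 on another).

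Arrays that share a replicate number did not deviate together in all comparisons, with correlations across genes of 0.069 to 0.206 for tissue and cultured cells, -0.093 to -0.059 for tissue and neurospheres and -0.19 to 0.04 for the cultures, so the numbers were not taken as pairs. With the replicate number as a block, 11 members rose and 8 fell in neurospheres, 7 and 9 in cultured cells and 9 and 4 between the cultures. With 3 arrays in a group, signals near 5.70 are limited by background, and differences of Lama3, Lamc3, Itga2 and Itgal lie there.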
